A study of Homo sapiens with 2 samples.

Results

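Contacts between 2 different H3K27ac anchors of one autosome whose midpoints lie more than 2 Mb apart were examined in HCT116, an established human colorectal carcinoma cell line. HiChIP joins pieces of chromatin that lie near each other in the nucleus by ligation after digestion with MboI, which cuts at GATC, and then enriches for H3K27ac, an acetylation mark of active enhancers and promoters. The series held 1 condition in 2 replicates, HCT116 cells grown in medium with serum, and no treatment is labelled. The labels do not say whether the replicates came from separate cultures. Replicate 1 held 394979 such anchor pairs among 1540905 rows of its table and replicate 2 held 458140 among 1740528 rows. The members were found by distance alone, whatever their count, and each count is 1 paired-end tag that joins the 2 anchors.

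Contacts over several megabases reflect how a whole chromosome is folded. In mammalian nuclei each chromosome keeps to a territory, active gene-rich segments tend to lie with other active segments (the A compartment) and gene-poor segments with each other (the B compartment), and contact falls with distance along the chromosome. Because HiChIP pulls down acetylated chromatin, active segments are sampled more deeply than silent ones.

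Over 2 Mb, almost every anchor pair was seen by a single tag. Replicate 1 had 395351 counts on its 394979 pairs and replicate 2 had 458641 counts on 458140 pairs. A count of 1 was found for 99.9% of the pairs in each replicate, and 360 pairs of replicate 1 and 487 pairs of replicate 2 had a count of 2 or more. Among the counts that join different autosomal anchors, 25.05% spanned more than 2 Mb in replicate 1, with a 95% exact (Clopper-Pearson) interval of 24.98 to 25.12%. The share of replicate 2 was 25.15% (25.09 to 25.21%). These intervals cover counting error only and not differences between replicates. The study's methods name no molecular identifiers. The 247256 autosomal anchors allow 1728857985 pairs over 2 Mb, of which 0.0493% had a count in either replicate.

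Single anchor pairs therefore hardly recurred. Of the pairs in replicate 1, 0.246% (Clopper-Pearson interval 0.231 to 0.262%) were found again in replicate 2, against 19.8% of its pairs up to 2 Mb apart. Of the pairs in replicate 2, 0.212% (0.199 to 0.226%) were found in replicate 1, against 17.4% of the nearer pairs. Pairs with at least 2 counts were found again more often, 19 of 360 from replicate 1 and 22 of 487 from replicate 2. In all, 973 of 852146 pairs were present in both replicates. Apart from the few pairs described next, the values below are therefore sums over many anchors.

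The anchor pairs with the highest summed counts among those found in both replicates are shown first, because here the sequence of the anchors is part of the result. Over all pairs, 12 reached a summed count of 4 or more. The 10 highest, with ties broken by the smaller distance, hold a pair across most of chromosome 1, pairs of duplicated genes, and pairs just over 2 Mb apart. The highest joined chr1:17050894-17055759 to chr1:234913201-234916966, 218 Mb apart, with 8 and 3 counts. Neither anchor overlapped an annotated gene. No 31-base word of one anchor occurred in the other on either strand. Over the 100 kb stretches that hold them, 9.59% of the words of the first were found in the second. The 150 bases of the first anchor that hold the most MboI sites, nearest to the middle where tied, are given below from the plus strand of the hg19 (GRCh37) reference, with GATC in capitals.
chr1:17054064-17054213: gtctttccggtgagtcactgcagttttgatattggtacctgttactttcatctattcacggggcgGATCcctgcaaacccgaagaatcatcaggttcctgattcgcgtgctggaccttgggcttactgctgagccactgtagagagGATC

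GATC, which reads the same on both strands, occurred in 99.99% of all autosomal anchors (median 6 sites per anchor) and in 44.8% of their middle 150 bases, so its presence does not set these anchors apart. The 2 anchors held 11 and 8 sites.

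One end of this chromosome 1 contact lay mostly in 1 anchor. The anchor at 234913201 had 76 contacts over 2 Mb, 35 in replicate 1 and 41 in replicate 2, against a median of 5 per anchor over both replicates. Of these, 48 (25 and 23) reached within 1 Mb of the partner. The 10 anchors before it had 0 such contacts among 121 over 2 Mb. The 10 anchors after it had 12 among 96, of which the directly following anchor had 9. On the partner side the counts spread more widely: 22 (13 and 9) fell in the 100 kb before the middle of the partner anchor and 6 (1 and 5) in the 100 kb from it on. Another 6 (3 and 3) fell 100 to 200 kb before it. In both replicates the 100 kb before the middle held more counts than any other stretch examined. The origin of these counts was not tested.

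Pairs of duplicated genes shared long exact runs of bases in 2 of 3 cases. The pair between NOTCH2, the gene of a Notch receptor, and the NOTCH2NL/NBPF10 locus had 1 and 4 counts over 24.7 Mb, and 53.4% of the 31-base words of the NOTCH2 anchor were found in the other. The longest run shared by both anchors was 383 bases, and its middle 150 bases are given as the plus strand of the NOTCH2 side, with GATC in capitals. They match chr1:145259112-145259261 on the minus strand.
chr1:120562143-120562292: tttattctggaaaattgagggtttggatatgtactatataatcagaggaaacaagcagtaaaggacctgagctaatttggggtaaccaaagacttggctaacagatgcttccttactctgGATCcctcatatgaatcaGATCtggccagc

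The pair between TVP23C and TVP23B, paralogous genes of Golgi membrane proteins on chromosome 17, had 1 and 3 counts over 3.24 Mb, and 60.3% of the words of the TVP23C anchor were found in the other. Its longest shared run was 203 bases. The middle 150 bases held no MboI site and match chr17:18696439-18696588 on the minus strand.
chr17:15454770-15454919: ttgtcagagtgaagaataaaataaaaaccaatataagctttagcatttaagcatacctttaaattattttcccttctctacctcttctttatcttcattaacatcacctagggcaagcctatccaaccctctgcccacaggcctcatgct

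A pair between the pseudogenes GUSBP1 and GUSBP18 on chromosome 5 had 3 and 1 counts over 12.7 Mb, and no 31-base word was common to its 2 anchors. Where anchors share sequence, a contact between the copies and a tag placed in the wrong copy cannot be told apart in these tables.

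Pairs on chromosomes 8 and 10 lay 2.09 to 2.48 Mb apart, close to the lower limit of distance, and shared no 31-base word. On chromosome 10, 4 pairs joined 112152434 to 112176995 with 114244817 to 114302960, inside VTI1A, the gene of a vesicle SNARE protein. These had 3 and 3, 1 and 3, 2 and 2, and 2 and 2 counts in replicates 1 and 2. On chromosome 8, the CASC19/PCAT1 noncoding locus contacted an exon of a noncoding transcript at 130715746 with 1 and 3 counts. The 8 different anchors of these pairs on chromosomes 8 and 10 had 86 to 152 contacts over 2 Mb each, against the median of 5. They were 4384 to 12362 bases wide, against a median anchor width of 2.55 kb. They also lie from 70 Mb of chromosome 8 and from 100 Mb of chromosome 10 on, where anchors had more counts within 2 Mb.

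Anchors differed widely in how many contacts over 2 Mb they had. Over both replicates, the quartiles were 3, 5 and 9 counts per anchor, 2.46% of the anchors had none, and the tenth with the most held 29.4% of all contact ends. The count per anchor rose with anchor width (Spearman's rho 0.497) and with counts within 2 Mb (rho 0.579). The ranks of the 2 replicates had a rho of 0.502 over the 247256 anchors, which share their widths and base composition. Among the 10 highest anchors, examples chosen after their values were seen were a gene-free anchor of 17.7 kb on chromosome 12 from 89313561 with 90 and 111 counts, and an anchor in PCDH7, a protocadherin gene on chromosome 4, with 68 and 96 counts. A narrower anchor in PDP1, which encodes a pyruvate dehydrogenase phosphatase, had 65 and 79 counts on 4.55 kb. It also lies in the stretch of chromosome 8 from 70 Mb on. In these 3 anchors the count was higher in replicate 2, which also had more counts in total.

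Contact fell with distance up to about 100 Mb and fell more steeply over 20 Mb than below it. From 2 to 20 Mb, the counts per possible anchor pair fell with an exponent of -0.817 in replicate 1 and -0.815 in replicate 2 (mean -0.816 ± 0.00198, SD, n = 2), where an exponent of -1 means that contact is inversely proportional to distance. From 20 to 100 Mb the fall was steeper, with exponents of -1.37 and -1.33 (mean -1.35 ± 0.0233, SD, n = 2). The difference between the ranges was many times the spread between replicates. The replicates had 1309 and 1500.0 counts per 1000000 possible pairs at 2 to 5 Mb, 402 and 462 at 10 to 20 Mb, 216 and 253 at 20 to 50 Mb, and 70.4 and 84.7 at 50 to 100 Mb. Either side of the limit of distance the change was smooth, with 2528 and 2904 counts per 1000000 possible pairs at 1.9 to 2 Mb and 2314 and 2683 at 2 to 2.1 Mb.

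Beyond 100 Mb, the fall stopped and the counts per possible pair rose again. All autosomes together had 49.6 and 60.5 counts per 1000000 possible pairs at 100 to 150 Mb, 59.6 and 70.1 at 150 to 200 Mb, and 102 and 116 at 200 to 250 Mb. Only chromosomes 1 and 2 are long enough for the last class, so the rise was read within each of them. Chromosome 1 went from 46.0 and 59.3 at 100 to 150 Mb to 114 and 128 at 200 to 250 Mb. Chromosome 2 went from 41.4 and 51.4 to 87.3 and 102. In both chromosomes and both replicates, regions near opposite ends had more counts per possible pair than regions 100 to 150 Mb apart. These rates are not matched for depth, and only anchors towards the ends can form the longest pairs. The part of depth in the rise was not tested.

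**Figure D1:**
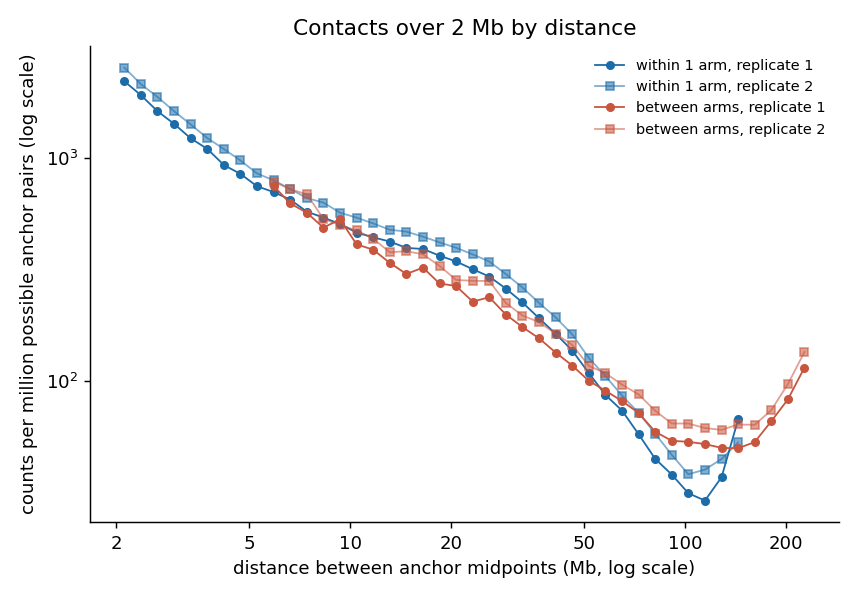
Counts per 1000000 possible anchor pairs (log scale) against the distance between anchor midpoints in Mb (log scale), for pairs within 1 arm and between arms in each replicate, in distance classes with enough possible pairs. The curves fall to about 100 Mb, run lower between arms than within arms at 20 to 50 Mb, and rise again at the longest distances.

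The middle contact of replicate 1 spanned 14.8 Mb and that of replicate 2 spanned 15.1 Mb, and the longest spanned 248 and 246 Mb of chromosome 1. By distance, 22.7% ± 0.201 (SD, n = 2) of the counts fell at 2 to 5 Mb, 26.5% ± 0.165 at 20 to 50 Mb and 5.31% ± 0.126 beyond 100 Mb.

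Chromosomes differed in slope by more than the replicates did. From 2 to 20 Mb, the exponent of single autosomes ran from -0.922 (chromosome 4) to -0.583 (chromosome 22) with a median of -0.781, and the largest difference between replicates on 1 chromosome was 0.108. From 20 to 100 Mb, the 12 autosomes long enough ran from -1.56 (chromosome 8) to -1.01 (chromosome 9), and no chromosome differed between replicates by more than 0.0905. The share of different-anchor counts over 2 Mb also varied, from 12.9 and 12.8% on chromosome 21 to 29.9 and 29.9% on chromosome 2, and long chromosomes have more room for such pairs.

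Contacts between the arms of a chromosome were compared with those within its arms. Arms were split at the long run of unknown bases (N) at each centromere, which left 17 autosomes with anchors on both arms. Between-arm contacts made up 14.5% of the counts over 2 Mb in replicate 1 (Clopper-Pearson interval 14.41 to 14.63%). They made up 14.9% of those of replicate 2 (14.80 to 15.01%), while 42.0% of the possible pairs lay between arms. Arm and distance go together: between-arm pairs were 1.38% of the possible pairs at 5 to 10 Mb and 94.3% beyond 100 Mb.

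At matched distance and depth, contacts between arms were slightly fewer than contacts within arms. The expected count of a pair of 100 kb pieces was the product of balanced weights of both pieces and the mean contact of its distance class. The ratio of observed to expected counts was 0.945 between arms (95% exact Poisson interval 0.935 to 0.954) and 1.01 within arms in replicate 1, and 0.945 (0.936 to 0.953) and 1.01 in replicate 2. Between over within was 0.938 in replicate 1 and 0.939 in replicate 2 (mean 0.938 ± 0.000429, SD, n = 2). With weights taken from the counts within 2 Mb in place of balanced ones, the ratio was 1.00.

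The ratio varied with distance. Between over within was 1.15 and 1.12 at 5 to 10 Mb and 0.916 and 0.921 at 10 to 20 Mb in the 2 replicates. It was 0.844 and 0.839 at 20 to 50 Mb, but 1.09 and 1.09 at 50 to 100 Mb and 1.29 and 1.23 beyond 100 Mb. With the run of N cut out of the distance, an alternative chosen after seeing the data, the means were 0.801 ± 0.0144 (SD, n = 2) at 5 to 10 Mb, 0.749 ± 0.000281 at 20 to 50 Mb, 0.979 ± 0.00185 at 50 to 100 Mb and 1.23 ± 0.0332 beyond 100 Mb. Under both measures of distance the ratio was below 1 at 10 to 50 Mb and above 1 beyond 100 Mb, while the values at 5 to 10 Mb and at 50 to 100 Mb turned from above to below 1.

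By chromosome, 10 of the 17 autosomes had a ratio below 1 whose counting interval lay wholly below 1 in both replicates, and 3 had one wholly above 1. Chromosome 20 had the lowest values, 0.750 and 0.718, followed by chromosomes 8 (0.784 and 0.764), 5 (0.791 and 0.781) and 18 (0.796 and 0.777). The intervals of these 4 chromosomes overlap one another, so their order is not resolved. Chromosomes 3 (1.10 and 1.08), 6 (1.09 and 1.10) and 9 (1.19 and 1.08) lay above 1. Chromosomes 1, 9 and 16 have the longest runs of N, 21.05, 18.15 and 11.1 Mb of placeholder length. With those cut out, chromosome 9 fell to 0.716, chromosome 1 from 1.03 to 0.746 and chromosome 16 from 0.846 to 0.604, whereas chromosomes 3 and 6 stayed above 1 at 1.05 and 1.04.

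**Figure D2:**
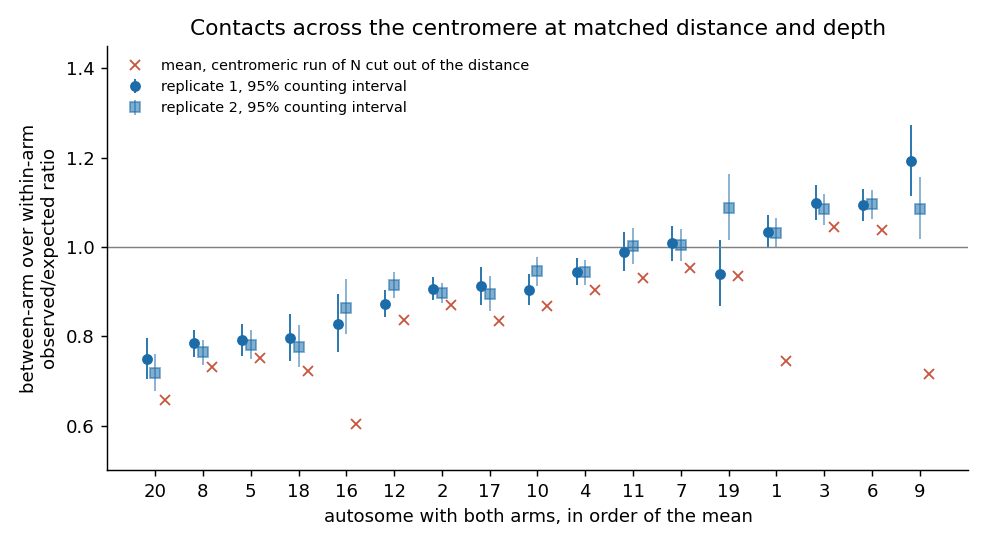
Ratio of between-arm to within-arm observed over expected counts (y axis) for each of the 17 autosomes with both arms (x axis), as points with 95% counting intervals for each replicate and crosses for the mean with the centromeric run of N cut out of the distance. Chromosome 20 is lowest, chromosomes 3 and 6 stay above 1 in all markers, and chromosomes 1, 9 and 16 move most when the run is cut out.

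To find which regions contacted each other beyond depth and distance, 7922 pairs of different 5 Mb bins on one chromosome were tested. A pair was called where its count passed a one-sided exact Poisson test at adjusted p under 0.01 (Benjamini-Hochberg over all pairs) in both replicates. In all, 243 pairs, 3.07% of those tested, were called above their expected count, and 105 pairs, 1.33%, were called below it. Replicate 1 alone called 365 above (4.61%) and 174 below (2.2%), and replicate 2 alone called 406 (5.12%) and 232 (2.93%). The counts of bin pairs spread more than Poisson sampling, with a chi-square per degree of freedom of 4.12 in replicate 1 and 4.49 in replicate 2. Under a negative binomial with 1 dispersion per replicate, 15 pairs remained above, all among the 243, which is 0.189% of those tested, and 0 below, where 79 had an unadjusted p under 0.05 in both replicates.

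Pairs called in 1 replicate departed the same way in the other with few exceptions. All 365 pairs above in replicate 1 had more counts than expected in replicate 2, at 1.4501 times the expected sum, whereas 42.7% of all tested pairs exceeded their expected count there. Of the 406 pairs above in replicate 2, 404 exceeded the expected count in replicate 1, at 1.46 times the expected sum. All 174 pairs below in replicate 1 were below in replicate 2, at 0.686 times. The log ratios of the replicates had a Pearson r of 0.586 over all 7922 bin pairs and of 0.827 over the 2240 with an expected count of at least 50, across bin pairs that share anchors and base composition.

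**Figure D3:**
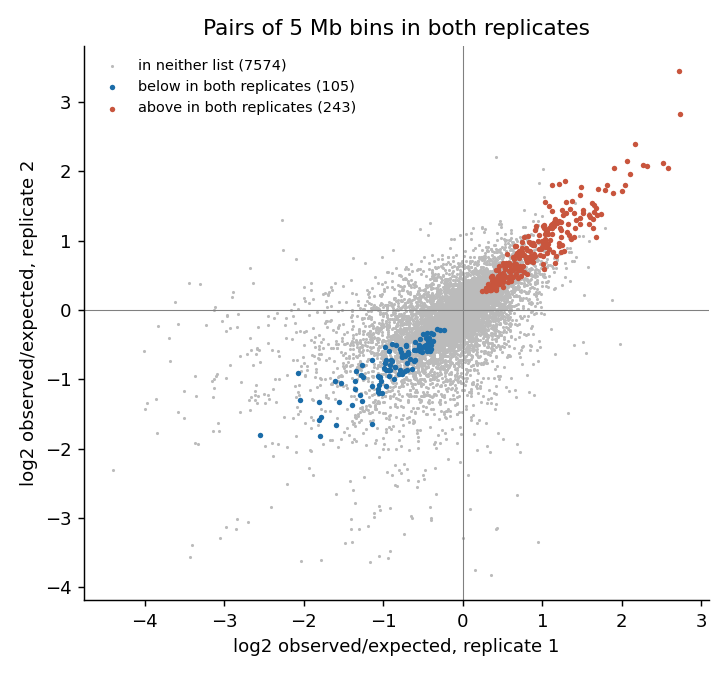
Log2 of observed over expected counts (0.5 added to both) of each of the 7922 pairs of 5 Mb bins in replicate 1 (x axis) and replicate 2 (y axis). The 243 pairs above in both replicates lie to the upper right, the 105 pairs below in both lie to the lower left, and the remaining pairs scatter around 0.

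Pairs of gene-rich bins made up 120 of the 243 pairs called above their expected count. Bins were ranked by protein-coding start sites per Mb: 181 bins were gene-rich (7 or more, median 12.2), 190 gene-poor (4 or fewer, median 2.6) and 172 between. Of 899 pairs of gene-rich bins, 13.3% were above, against 3.07% of all pairs. Among neighbouring bins the order was the other way, with 8 of 96 gene-rich pairs above (8.33%) against 70 of all 505 (13.9%). Of 1465 pairs of a gene-rich with a gene-poor bin, 11 were above (0.751%), and of 1164 pairs of gene-poor bins, 29 were above (2.49%). Among the 15 pairs above under the negative binomial, 12 joined gene-rich bins. No test was run on these shares, since bin pairs share bins.

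The ratio of gene-rich pairs rose with distance. Over all distances, observed over expected counts were 1.10 in both replicates for gene-rich with gene-rich bins (mean 1.10 ± 0.000157, SD, n = 2), 0.893 and 0.889 for gene-rich with gene-poor bins, and 1.03 in both for gene-poor with gene-poor bins. In neighbouring bins, gene-rich pairs were below expectation, at 0.937 in both replicates, and gene-poor pairs above it, at 1.17 and 1.16. At 25 to 50 Mb, gene-rich pairs had 1.21 and 1.22 times their expected counts. At 55 to 100 Mb, they had 1.49 in both replicates, and gene-poor pairs 0.822 and 0.813. Beyond 100 Mb, gene-rich pairs had 1.52 and 1.48 and gene-poor pairs 0.815 and 0.800. The counting intervals of gene-rich and gene-poor pairs did not overlap in either replicate in these classes. Because balancing brings the expected sum of each piece to its observed sum, the ratios of near and distant pairs are not independent.

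**Figure D4:**
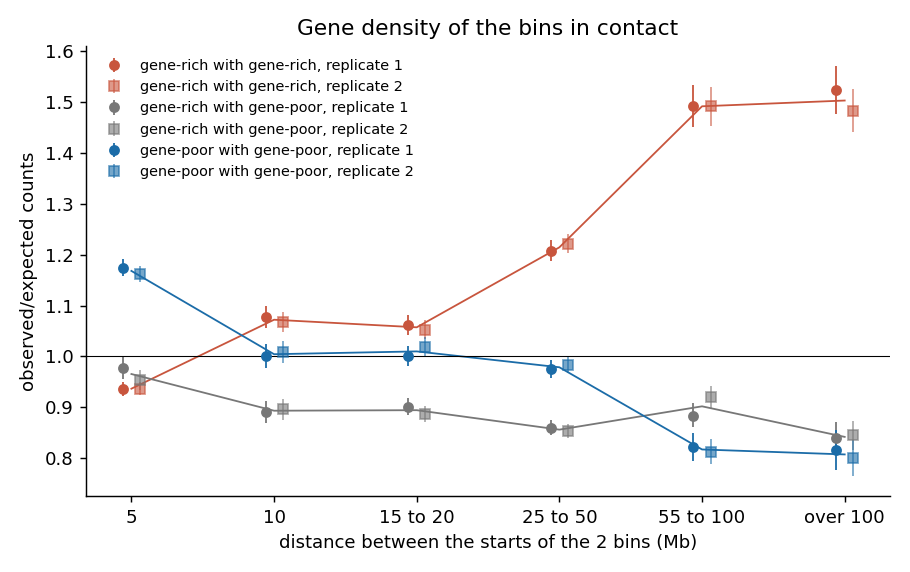
Observed over expected counts (y axis) of pairs of 5 Mb bins by the distance between bin starts in Mb (x axis), for 3 classes of gene density, with 95% counting intervals for each replicate and lines through the mean. Gene-rich pairs rise from below 1 in neighbouring bins to a mean of 1.49 at 55 to 100 Mb, while gene-poor pairs fall from 1.17 to 0.817.

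With another way of matching depth the level changed and the rise with distance stayed. With weights from the counts within 2 Mb, gene-rich pairs as a whole turned to 0.854, below gene-rich with gene-poor pairs at 0.889, and neighbouring gene-rich bins were at 0.714. At 25 to 50 Mb gene-rich pairs then had 0.946, above the 0.851 of gene-rich with gene-poor pairs but below the 1.08 of gene-poor pairs, at 55 to 100 Mb 1.19 and beyond 100 Mb 1.27. Gene-rich bins had more counts within 2 Mb, a median of 20.8 per anchor over both replicates, against 17.8 in gene-poor bins. Their share of counts over 2 Mb was lower, with a median of 21.9 and 21.8% in the 2 replicates, against 29.2 and 29.0% in gene-poor bins.

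With balanced weights, the excess of distant gene-rich pairs was found on each chromosome examined. In the 18 autosomes with both kinds of pairs more than 20 Mb apart, gene-rich pairs exceeded both 1 and the gene-rich with gene-poor pairs in both replicates. Chromosome 3 had 1.93 and 1.91 over 35 gene-rich pairs, and chromosome 6 had 2.38 and 2.01 over 3. Chromosome 17 had 1.14 and 1.11 for 47 gene-rich pairs and 0.523 and 0.639 for 6 gene-rich with gene-poor pairs.

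Some gene-rich bins contacted several others. On chromosome 3, 4 bins far apart contacted one another in every combination: 10 to 15 Mb, 45 to 50 Mb, 125 to 130 Mb and 195 Mb to the end. The bins from 45 and 125 Mb had 70 and 72 counts where 11.8 and 16.1 were expected, a summed ratio of 5.09 (exact Poisson interval 4.29 to 6.003). The bins from 45 and 195 Mb, 150 Mb apart, had 40 and 44 counts, a ratio of 4.71 (3.76 to 5.83). The other 4 ratios ran from 2.17 to 3.47. All 6 pairs were called in both replicates, with adjusted p-values by the exact Poisson test of 5.68e-05 or less. Under the negative binomial, 3 of the 6 remained, and the pairs of the bin from 10 Mb with the other 3 bins did not. The bin from 45 Mb holds 106 coding genes, and its anchor with the most of these contacts, 4 and 2 counts, lay at the start sites of DALRD3 and NDUFAF3, a complex I assembly factor. On the other side the leading anchors, with 3 counts each, included those in MGLL, the gene of monoacylglycerol lipase.

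On chromosome 1, of 6 combinations of the bins from 25, 40, 150 and 200 Mb, 5 were called. The exception was 25 with 40 Mb, with a ratio of 1.31 and adjusted p-values by the exact Poisson test of 0.00843 and 0.0197. Under the negative binomial, 2 of the 5 remained, 25 with 150 Mb and 25 with 200 Mb. The bin from 150 Mb, with 163 coding genes, and the bin from 200 Mb each had 7 partners above expectation, the most of any bin beside that from 10 Mb on chromosome 3. The bins from 25 and 150 Mb had 50 and 59 counts where 11.3 and 14.8 were expected, a ratio of 4.18 (exact Poisson interval 3.44 to 5.05). The bins from 25 and 200 Mb, 175 Mb apart, had 63 and 66 counts, a ratio of 3.85 (3.22 to 4.58). In the first of these, the leading anchor of the bin from 150 Mb, with 1 and 3 counts, held the start site of CFAP141. Other anchors there held the start sites of APH1A, a γ-secretase subunit, and PRPF3, a splicing factor, with 2 counts each. The 109 contacts were spread over 96 anchors of one bin and 95 of the other, with at most 4 at 1 anchor.

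Of the 277 bins in at least 1 pair above, 12 had 5 or more partners that were not neighbours, and 11 of these 12 were gene-rich, against 181 of all 543 bins. These partners were counted from the Poisson calls, of which 15 remained under the negative binomial. The exception was the bin from 105 Mb on chromosome 6, with 5.8 coding genes per Mb.

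On chromosome 11, the first bin and the bin from 65 Mb had 73 and 98 counts where 15.8 and 18.3 were expected, a ratio of 5.01 (exact Poisson interval 4.29 to 5.82). Each holds over 100 coding genes (124 and 127). The leading anchors of the first bin lay at HRAS, a RAS oncogene, with 4 and 0 counts, at CTSD, the gene of the lysosomal protease cathepsin D, with 3 and 1, and at MRPL23 with 2 and 2. The leading anchor of the other bin lay in a noncoding transcript with 1 and 3 counts. The next included the start sites of CFL1, encoding the actin-severing protein cofilin, and MUS81, encoding an endonuclease of DNA repair, which shared 1 anchor with 1 and 2 counts. On chromosome 7, the first bin and the bin from 100 Mb had 33 and 40 counts where 8.49 and 9.27 were expected, a ratio of 4.11 (3.22 to 5.17). An anchor at the start site of TRIP6, an adaptor of focal adhesions, had 0 and 3 of these counts. HRAS and TRIP6 each took all their counts from 1 replicate, unlike the bin pairs they lie in.

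With distance taken along the reference, the highest ratios among the named pairs lay across the centromere of chromosome 1. The bins from 120 and 140 Mb had 33 and 65 counts where 4.57 and 5.51 were expected, a ratio of 9.72 (exact Poisson interval 7.89 to 11.9), and the bins from 120 and 145 Mb had 93 and 108, a ratio of 7.09 (6.14 to 8.14). Both span the 21.1 Mb run of N, and with it cut out of the distance the ratios were 3.20 and 3.35, below the 5.40 of the ends of chromosome 17 on that measure. In the first pair, the leading anchor lay in PDE4DIP, which encodes myomegalin of the centrosome and Golgi, with 7 and 12 counts. In the other, it was the NOTCH2 anchor whose sequence is given above, also with 7 and 12 counts. The bins from 140 and 205 Mb, with 25 and 27 counts and a ratio of 4.89 (3.65 to 6.41), or 6.10 with the runs of N cut out, had 7 and 9 of these counts at 1 gene-free anchor from 144007815. The part of duplicated sequence in these 3 pairs was not tested.

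Few pairs stood out at the scale of single loci. In a scan of 14709770 pairs of 100 kb pieces with the same test, added after seeing the data, 5 pairs (3.4e-05%) were called in both replicates, against 9 in replicate 1 (6.12e-05%) and 10 in replicate 2 (6.8e-05%). The piece from 17 Mb on chromosome 1 and the piece at 234.9 Mb had 16 and 9 counts where 0.169 were expected over both replicates. They hold the anchors of the highest anchor pair above, neither of which overlapped an annotated gene. The first piece holds AL137798.1, AL021920.2 and CROCC, the gene of rootletin. The pieces shared 9.59% of their 31-base words. The 2 pieces of NOTCH2 at 120.4 and 120.5 Mb met pieces at 145.0 and 145.2 Mb with 12 and 9, and 10 and 24 counts, and shared 0.285% and 52.9% of their words. On chromosome 16, the piece of PDPR at 70.1 Mb and the piece of NPIPB15, CLEC18B and GLG1 at 74.4 Mb had 7 and 8 counts where 0.548 were expected and shared 8.15%. On chromosome 1, the pieces at 144.0 and 206.4 Mb had 6 and 5 counts where 0.0166 were expected, and 83.2% of the words of the latter were found in the former. The share of common sequence ran from under 1% to over 80% among the 5, and its part in the counts was not tested.

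Opposite chromosome ends were called above their expected count on 4 chromosomes by the Poisson test, and on chromosomes 16 and 17 also by the negative binomial. The first and last 5 Mb bins of the 17 autosomes had 276 counts where 152 were expected in replicate 1, a ratio of 1.81 (exact Poisson interval 1.60 to 2.04), and 323 where 182 were expected in replicate 2, a ratio of 1.77 (1.58 to 1.98). With the decay of each chromosome in place of that over all autosomes, the ratio was 1.27 and 1.19. Bins of 10 Mb gave 1.24 and 1.35, and bins of 2.5 Mb gave 2.34 and 2.13. By single chromosomes, with the decay over all autosomes, 4 of the 17 end pairs were called above (background 3.07%). Ratios lay over 1 in both replicates for 6 end pairs and under 1 in both for 5. Chromosome 16 had 76 and 114 counts where 17.8 and 25.2 were expected, a ratio of 4.42 (3.82 to 5.10). Chromosome 17 had 32 and 28 where 4.91 and 6.39 were expected, a ratio of 5.31 (4.05 to 6.83). Chromosome 7 had 33 and 37, a ratio of 2.71 (2.11 to 3.42), and chromosome 20 had 34 and 38, a ratio of 1.91 (1.496 to 2.41). Without chromosomes 7, 16 and 17, chosen after their values were seen, the ratio was 1.15 and 1.05 in the 2 replicates. That set still held chromosome 20, whose end pair was called above.

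Both end bins of chromosomes 16, 17 and 20 were gene-rich, with 38.9 and 12.3, 21.8 and 20.1, and 17.4 and 22.3 coding start sites per Mb. Yet the ends of chromosome 19, with 33.0 and 39.1 per Mb, had ratios of 0.951 and 0.991. Those of chromosome 1 had 1.08 and 0.973. Over 200 Mb only chromosomes 1 and 2 set the expected count, so the chromosome 1 ratio cannot show whether its ends had an excess. On chromosome 16, 150 anchors of the first bin and 154 of the last took part. The leading ones, with 3 counts each, included the start sites of SSTR5, a somatostatin receptor gene, and of MVD, which encodes an enzyme of cholesterol synthesis. The gene of the mechanosensitive channel PIEZO1 and the chromatin regulator ANKRD11 held others. On chromosome 17, leading anchors lay in VPS53 and SLC43A2 at one end and in RAB40B and B3GNTL1 at the other, with 2 to 3 counts each. The counts were spread over many genes at both ends, with no anchor above 4.

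**Figure D5:**
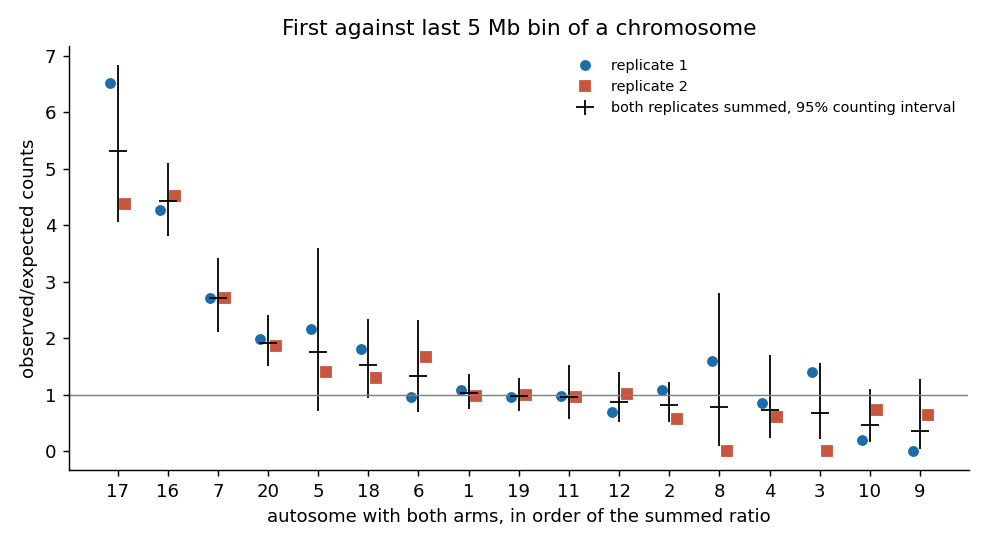
Observed over expected counts (y axis) between the first and last 5 Mb bin of each of the 17 autosomes with both arms (x axis), for each replicate and for their sum with its 95% counting interval. Chromosomes 17, 16, 7 and 20 lie above 1 with their whole interval, and the other 13 intervals include 1.

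Among the 5 lowest ratios, each pair joined bins of unequal gene density 15 to 30 Mb apart. By the classes above, the pairs on chromosomes 9 and 11 joined a gene-rich with a gene-poor bin. Both bins of the chromosome 19 pair were gene-rich. Of all pairs, 1.33% were called below, and of gene-rich pairs 2.11%. The shares were 2.32% for gene-rich with gene-poor, 2.31% for gene-rich with middle and 0.430% for gene-poor pairs. Among neighbouring bins, 15 of 96 gene-rich pairs were called below (15.6%), against 9.90% of all neighbouring pairs. Over 20 Mb apart, 3 of 613 gene-rich pairs were called below (0.489%). On chromosome 19, the first bin, with 163 coding genes, and the bin from 30 Mb, with 35, had 7 and 16 counts where 43.4 and 56.9 were expected, a ratio of 0.229 (exact Poisson interval 0.145 to 0.344). On chromosome 7, the bins from 50 and 75 Mb, with 10 and 33 genes, had 8 and 9 counts where 29.1 and 33.0 were expected, a ratio of 0.274 (0.160 to 0.439). On chromosome 1, the bin from 25 Mb, a partner of many distant gene-rich bins, and the bin from 55 Mb, with 25 genes, had 15 and 22 counts where 53.6 and 67.2 were expected, a ratio of 0.306 (0.216 to 0.422). On chromosome 11, the bin from 65 Mb, with 127 genes, and the bin from 80 Mb, with 7, had 10 and 12 counts, a ratio of 0.307 (0.192 to 0.465). On chromosome 9, the bins from 105 and 135 Mb, with 19 and 103 genes, had 12 and 13 counts, a ratio of 0.315 (0.204 to 0.466). All 5 were called by the Poisson test in both replicates and none by the negative binomial.

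No pair over 50 Mb apart was called below its expected count in both replicates, out of 2282 at 55 to 100 Mb and 1571 beyond 100 Mb. Over those distances, 48 and 37 pairs were called above. The median expected count over all tested pairs was 21.3 in replicate 1 and 25.3 in replicate 2, and a low expected count limits how far below it a count can be called.

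Contacts between 2 promoters were about as frequent as the promoter shares of their surroundings gave. Anchors within 2.5 kb of a protein-coding start site were 6.39% of all anchors and held 9.51 and 9.72% of the ends of contacts over 2 Mb, against 9.86 and 10.0% of the ends within 2 Mb. Contacts with such an anchor at both ends numbered 4792 and 5668, which is 1.01 (exact Poisson interval 0.984 to 1.04) and 0.985 (0.960 to 1.01) times the number given by the promoter shares of the other contacts of the same 100 kb pieces. Over 50 Mb the values were 0.999 (0.925 to 1.08) and 0.897 (0.834 to 0.964), below 1 beyond counting error in replicate 2 only.

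HCT116 is known to carry extra copies of parts of chromosomes 8, 10 and 17, and the anchors there had more counts within 2 Mb. By whole bins, the median count within 2 Mb per anchor was 30.7 from 70 Mb of chromosome 8 against 16.9 before it, 32.8 from 100 Mb of chromosome 10 against 18.6, and 39.4 from 40 Mb of chromosome 17 against 19.7. Contacts across these limits were fewer than expected from the depth of both sides, at 0.869 and 0.858 on chromosome 8, 0.887 and 0.918 on chromosome 10 and 0.932 and 0.945 on chromosome 17. Contacts inside the segments were at 1.02 and 1.02, 1.07 and 1.06, and 1.06 and 1.06. Contacts outside them on the same chromosomes were at 1.09 and 1.10, 1.02 and 1.01, and 1.05 and 1.04. Each counting interval of the values across lay below 1. Balancing brings the expected sum of each piece to its observed sum, so the values across, inside and outside are not independent. Pairs across these limits include pairs between arms. Between over within arms, the mean ratio was 0.774 on chromosome 8, 0.925 on chromosome 10 and 0.904 on chromosome 17. Over the 17 autosomes with both arms it ran from 0.734 (chromosome 20) to 1.14 (chromosome 9). Copy number was not measured here. Its part and that of the arms in these values were not tested.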

How the data were processed

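The samples were 2 HiChIP libraries of the HCT116 line, each with 1 table of anchor pairs. The authors cut chromatin with MboI and deposited raw counts of paired-end tags for each pair of anchors on one chromosome. Per the study's methods, HiC-Pro gave the valid pairs and hichipper the loops. Build hg19 is named in the submitters' processing notes, and versions are not given in the sources used here. The tables held 1885481 and 2131466 counts in all. Members and lists were chosen with earlier results of these data known.

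Rows of 2 different autosomal anchors with midpoints over 2 Mb apart were kept. Decay exponents came from Poisson regression of counts on log distance with possible anchor pairs as the offset. Expected counts came from 50 rounds of balancing of 100 kb pieces, with 20 distance classes per 10-fold distance, within each replicate, and were summed in 5 Mb bins. Bins needed 50 anchors and bin pairs an expected count of 1. One-sided exact Poisson tests were adjusted by Benjamini-Hochberg (adjusted p under 0.01 in both replicates). In simulated data, 0 of 7623 unraised bin pairs were called above in both replicates. Of 100 pairs raised 1.5-fold, 10 were called, against 51 of 100 raised 2-fold and 82 of 100 raised 3-fold. The simulation does not give the share of false calls among the real pairs, whose counts spread more than Poisson sampling. With 2 replicates of 1 condition, p-values and 95% intervals cover counting error only, and counts spread beyond it.

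Named bin pairs were the 10 with the highest ratio among those above with a summed count of at least 20, and the 5 with the lowest ratio below, and named anchor pairs the 10 with the highest summed count found in both replicates, of which 1 pair and 1 anchor sequence are not reported here. Genes came from GENCODE release 44 on GRCh37. Python 3.11.15, numpy 2.4.6, pandas 2.3.3, scipy 1.17.1 and pysam 0.24.0 were used. Alternatives changed the weights, the decay, bin width, arm boundary, counting of pairs and test.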

Additional observations from a re-analysis of the deposited data

How the results depend on the processing

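The settings left 24 values within the spread between replicates or within 1.5 times the count, moved 36 and turned 2. Weights from counts within 2 Mb turned the between-arm ratio to 1.001 and that of gene-rich pairs to 0.854, and gave 756 bin pairs above and 406 below (139 and 70 shared with the reported calls), 1.16 for gene-poor pairs and 1.58 for chromosome ends. Decay of each chromosome gave an arm ratio of 0.950, 1.09, 0.901 and 1.02 for gene-rich, mixed and gene-poor pairs, and 1.23 for ends. Cutting out the runs of N, chosen after seeing the data, gave an arm ratio of 0.859, and 1.10 and 1.02 for gene-rich and gene-poor pairs. Ranking bins by GC gave 1.09, 0.863 and 1.03 for the 3 classes. Bins of 2.5 Mb gave 1.08, 0.867 and 1.09, 50 bin pairs below and 2.24 for ends, and bins of 10 Mb gave 1.29 for ends. Ends without chromosomes 7, 16 and 17, also chosen after seeing the data, were at 1.10 with chromosome 20 kept in. Adjusted p under 0.05 gave 214 bin pairs below, and the negative binomial 15 above and 0 below. At an unadjusted p under 0.05 in both replicates, 79 pairs were below by the negative binomial, against 721 by the Poisson test. Anchor pairs with a count of at least 2 gave exponents of -1.66 and -2.58, a share between arms of 6.81% and a share found again of 4.90%. Pairs within 1 arm gave exponents of -0.81 and -1.40, and the median of single autosomes -0.78 from 2 to 20 Mb. Arms split at the widest space between anchors gave a share of 15.8% and a ratio of 0.965, possible pairs without weights a ratio of 0.880, and the autosomes other than 8, 10 and 17 a ratio of 0.957. The cause of these changes was not tested.

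Leaving out 1 replicate gave 365 to 406 bin pairs above and 174 to 232 below, since a call in both was then not asked for. The exponents were -0.817 to -0.815 and -1.37 to -1.33, the share between arms 14.5 to 14.9%, the arm ratio 0.938 to 0.939, and the ratios of the 3 density classes 1.10 to 1.10, 0.889 to 0.893 and 1.03 to 1.03, and that of ends 1.77 to 1.81. No paired analysis was possible because the series holds 1 group. Depth limits single anchor pairs, nearly all of which had 1 count.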
